A study of Homo sapiens
Mus musculus and Homo sapiens with 12 samples.

Results

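Heterokaryons collected on day 2 after fusion were compared with co-cultures of the same 2 cell types that had not been fused. The comparison rests on 4 of the 12 samples of the series, which are Het Day2 rep1 and rep2 and Co-culture rep1 and rep2. A heterokaryon is a fused cell that holds the nuclei of both parents side by side, here D3 mouse embryonic stem (ES) cells and MRC5 human fibroblasts, an established lung fibroblast line. Per the labels it is a transient product that does not divide on as a line, and heterokaryons were sorted by flow cytometry before RNA extraction. In the co-culture both cell types were harvested together for 1 RNA preparation; the labels give it no day. If the co-cultures were not sorted, effects of fusion and of sorting cannot be told apart in this comparison. The labels do not say that replicates came from separate cultures, so every p-value measures only the spread between these samples, which may be technical.

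The measured features were human genes, each the sum of its RefSeq coding transcripts, whose accessions all lay in the part of the tables that each of the 4 libraries covers. Of 18898 human genes with coding accessions, 4872 met that rule; 3200 of these had a value above 0 in at least 1 of the 4 libraries. The statistical test took in 2398 of the covered genes, those at 1 or more in at least 2 of the 8 libraries that mix the species, and 812 genes above 0 in these 4 libraries did not enter it. Levels are written as RPKM, reads scaled to transcript length and sequencing depth; this unit was inferred from the deposited values, and read totals are not given in the sources used here. A transcript that a table skips within its covered part was taken as 0. Levels are given for replicate 1 and then replicate 2.

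In such a cell a somatic nucleus shares its cytoplasm with a pluripotent nucleus, and human transcripts can be told from mouse ones by their sequence. Fibroblasts make and remodel connective tissue: they secrete collagens, proteases and their inhibitors, and growth factors. In the human embryo, transcription from the new genome starts at the cleavage stages with a set of genes that are silent in most somatic cells, many of them targets of the homeobox factor DUX4.

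In the 2 libraries of day 2 heterokaryons 2937 and 2532 of the covered genes were above 0, against 2298 and 2315 in the co-cultures. Replicates correlated across genes at 0.928 in day 2 heterokaryons and 0.951 in co-culture on the log2 scale; genes are not independent replicates. The fibroblast identity of the human RNA was checked with 9 covered markers, whose summed level was 4364 and 4915 RPKM in day 2 heterokaryons and 6377 and 6423 RPKM in co-culture. Of the ES cell markers only SOX2 and UTF1 were covered, and both were taken as 0 in all 4 libraries. In RNA from a population, fewer cells of a type and less RNA per cell cannot be told apart. No source used here says how reads that match both species were handled. Some genes needed by every cell were skipped in a table: the ribosomal protein gene RPS20 stood at 44.4 and 71.6 RPKM in day 2 heterokaryons and at 0 in both co-cultures. A value of 0 therefore marks a transcript with no value in that library, and need not mean that the RNA was absent. No log2 difference is given for a gene at 0 in both libraries of a group. A call that rests on such a 0 rests on a filled-in value.

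At a Benjamini-Hochberg adjusted p under 0.05 (limma on log2 of RPKM plus 1), 189 genes differed between day 2 heterokaryons and co-culture, which is 7.88% of the genes tested. Of these, 119 were higher in the heterokaryons (4.96% of genes tested) and 70 were lower (2.92%). Counts of calls in the gene lists below should be read beside these shares. Among the 119 rises 22 were at 0 in both co-cultures, and among the 70 falls 5 were at 0 in both day 2 libraries. Those calls rest on values of 0 filled in where a library had no value for the gene. A gene at 0 in both co-cultures entered the test only through heterokaryon libraries, so it could not come out lower. This holds for each such gene below. Most libraries that the filter drew on were heterokaryons, which favours rises in the counts. All 189 had libraries that did not overlap between the groups, but so did many uncalled genes: 39.8% of tested genes were higher without overlap and 21.9% were lower. The median log2 difference over all tested genes was 0.30, so a typical gene read slightly higher in the heterokaryons, and each difference below should be read beside that shift. Higher genes made up 63.0% of the calls on the values as deposited, against 74.7% when upper quartiles were equalised and 48.5% under quantile normalization, so the balance between rises and falls depends on the scaling. Leaving 1 library out of the fit left 10 calls without Het Day2 rep1, 8 without Het Day2 rep2, 23 without Co-culture rep1 and 18 without Co-culture rep2. CRIP1, KRT19, GPX3, SDC4 and NPTX1 were called in each of those 4 fits.

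**Figure D1:**
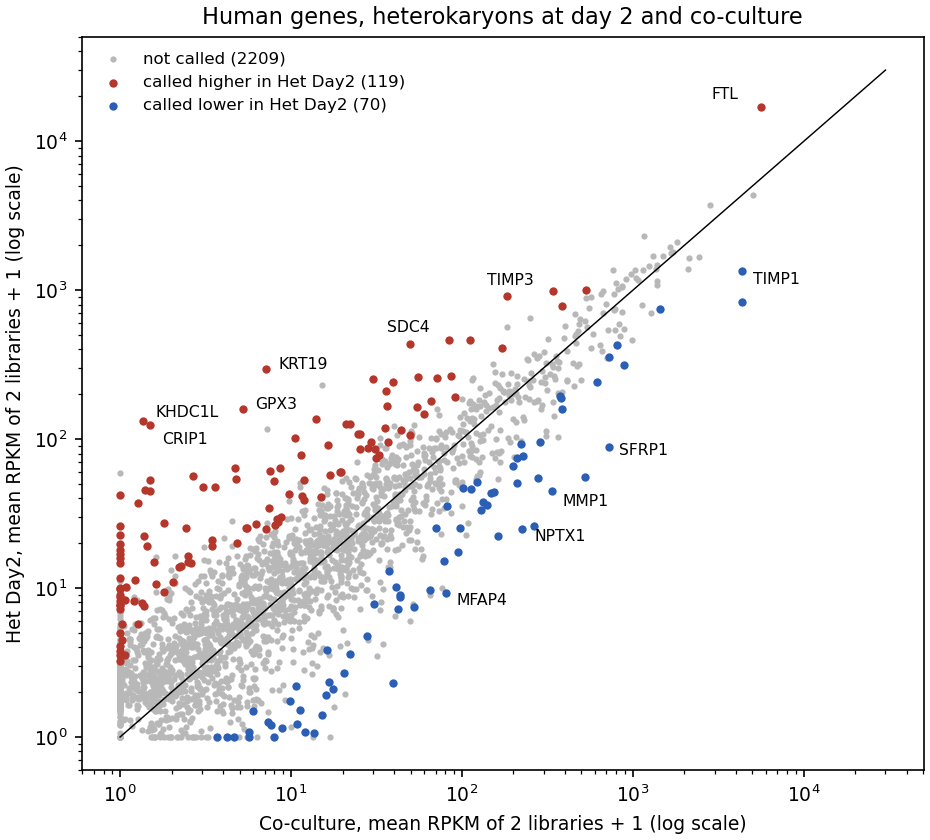
Mean level of each of the 2398 tested genes in day 2 heterokaryons (vertical axis) and co-culture (horizontal axis), both as RPKM plus 1 on log scales; red and blue points are the 119 genes called higher and the 70 called lower in Het Day2, and the line marks equal levels. Called genes lie along both sides of the cloud from the lowest levels to FTL, at 17211 and 16480.1 RPKM in day 2 heterokaryons and 5872 and 5404 RPKM in co-culture.

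Genes known from the cleavage stage human embryo were among the largest rises. Of 19 covered members of that list 10 were tested, and of these 6 were higher and 0 lower. Their median log2 difference was 2.94, against 0.30 for all tested genes. A member at 0 in both co-cultures entered the test only through its heterokaryon libraries, so it could not come out lower. The list was also chosen with earlier results of these data known, so its counts and median only describe it. KHDC1L, a KH domain gene of the early embryo, stood at 138 and 125 RPKM in day 2 heterokaryons, against 0.722 and 0 RPKM in co-culture (log2 difference 6.65, SE 0.99, adjusted p = 0.00819). RFPL4B, a ret finger protein-like gene, stood at 24.1 and 26.1 RPKM in day 2 heterokaryons and at 0 in both co-cultures (adjusted p = 0.00593). In both genes the 2 heterokaryon libraries lay close together. They lay far above the values used for the co-cultures, which for RFPL4B were both filled in as 0. RFPL4A, of the same family, had 13.7 and 23.9 RPKM in day 2 heterokaryons and was taken as 0 in both co-cultures (adjusted p = 0.0335). LEUTX, a homeobox factor of the cleavage embryo, had 14.5 and 6.8 RPKM in day 2 heterokaryons and was at 0 in both co-cultures (adjusted p = 0.00882). The histone demethylase gene KDM4E had 7.43 and 8.46 RPKM in the heterokaryons and was likewise at 0 in both co-cultures (adjusted p = 0.0107). PRAMEF4, of the PRAME family, had 6.01 and 1.95 RPKM in day 2 heterokaryons with 0 in both co-cultures (adjusted p = 0.0429). Its relative PRAMEF12, at 9.99 and 2.96 RPKM and again 0 in co-culture, narrowly missed the threshold (adjusted p = 0.0515). MBD3L3, a methyl-CpG binding domain-like gene, had 4.1 and 3.06 RPKM in day 2 heterokaryons and 0 and 0.28 in co-culture (adjusted p = 0.0783).

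A pair of TRIM genes outside that list showed the same pattern of levels. TRIM43B, a ring finger gene known from cleavage embryos, had 37.6 and 45.3 RPKM in day 2 heterokaryons and was at 0 in both co-cultures (adjusted p = 0.00776). TRIM49C, which was chosen after its values were seen, had 4.87 and 12.7 RPKM in day 2 heterokaryons and 0 in both co-cultures (adjusted p = 0.0201). Levels of these copies are uncertain, because near-identical neighbours can share their reads. Over 1341 coding bases TRIM43B and TRIM43 differ at 7, with 1 identical run of 618 bases; TRIM49C and TRIM49 differ at 5 of 1359, and RFPL4A and RFPL4AL1 at 5 of 864. TRIM43, TRIM49 and RFPL4AL1 were not analysed here. To show how little separates such copies, coding bases 422 to 511 of the TRIM43B and TRIM43 transcripts, both from chromosome 2 in GENCODE 29 (GRCh38) and read along the transcript, are given with the 3 bases that differ in capitals.
TRIM43B: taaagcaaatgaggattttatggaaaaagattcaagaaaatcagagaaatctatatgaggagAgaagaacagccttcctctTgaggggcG
TRIM43: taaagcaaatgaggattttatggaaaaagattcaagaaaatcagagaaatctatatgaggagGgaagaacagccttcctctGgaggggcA

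Of the genes above, 8 were called, and the mean level of each was highest on day 2. They were picked as higher on day 2, which favours a highest mean there, so no peak in time can be read from it. KHDC1L stood at 8.21 and 0.854 RPKM on day 1 and 15.1 and 107 RPKM on day 3, and TRIM43B at 1.4 and 5.16 RPKM on day 1 and 8.91 and 41.4 RPKM on day 3. LEUTX was at 0 and 0 RPKM on day 1 and 0 and 0.382 RPKM on day 3, and KDM4E at 0 and 0 RPKM on day 1 and 1.01 and 2.19 RPKM on day 3. The 2 libraries of day 3 differed widely for KHDC1L and TRIM43B, and no difference between days was called for any of these genes. For LEUTX, day 2 minus day 1 gave an adjusted p of 0.0588 and day 2 minus day 3 gave 0.287 (limma, Benjamini-Hochberg). Of these 8 genes, all called on day 2, 0 stayed called without Het Day2 rep1, 1 without Het Day2 rep2, 0 without Co-culture rep1 and 0 without Co-culture rep2, with median adjusted p of 0.0861, 0.103, 0.0967 and 0.106. Quantile normalization ended the call of PRAMEF4. A fit with a replicate block, which adds replicate number to the model, ended those of PRAMEF4 and RFPL4A and left 6 of the 8 called.

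**Figure D2:**
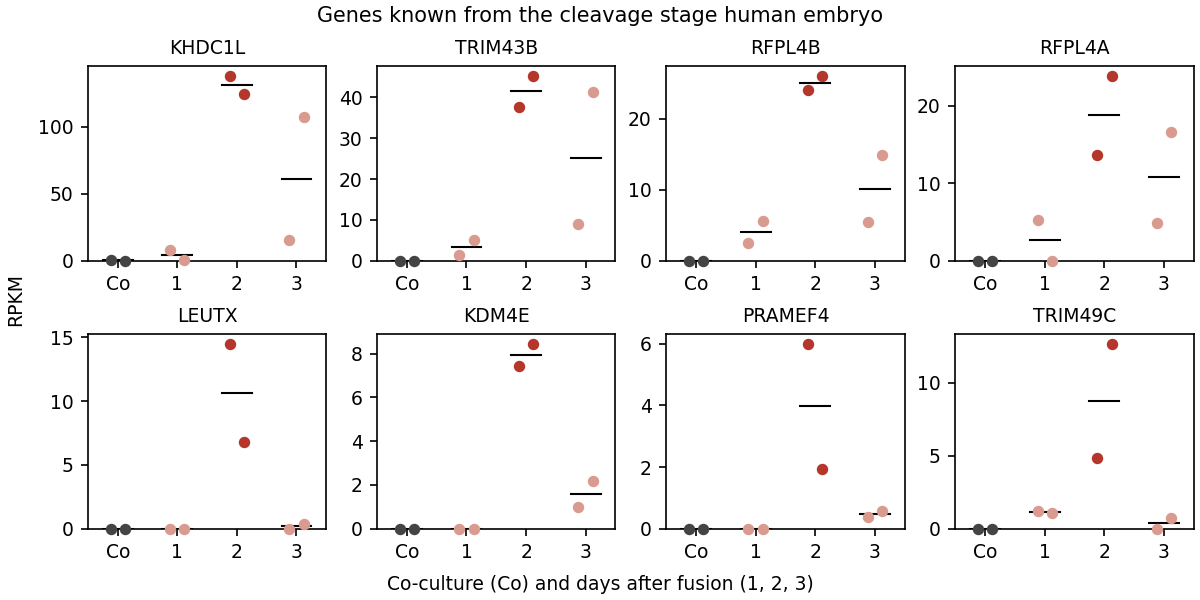
RPKM of 8 genes known from the cleavage stage embryo, in co-culture (Co) and in heterokaryons on days 1, 2 and 3; points are the 2 libraries of each group and bars their means. In each gene the mean is highest on day 2, and the co-culture libraries are at or near 0, where a 0 is filled in for a library with no value. The genes were picked as called higher on day 2, which favours both features.

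In day 2 heterokaryons 3 epithelial and 3 cytoskeletal genes rose. Of 15 tested epithelial genes 3 were higher and 0 lower (median log2 difference 1.20), and of 26 muscle and cytoskeleton genes 3 were higher and 0 lower (median 0.31, close to the 0.30 of all genes). KRT19, a keratin of simple epithelia, had 259 and 329 RPKM in day 2 heterokaryons and 5.94 and 6.29 RPKM in co-culture, a ratio of 48.1 (log2 difference 5.36, SE 0.33, adjusted p = 0.000183). CLDN4, a tight junction claudin, had 20.5 and 32.2 RPKM in day 2 heterokaryons and 0 and 1.6 RPKM in co-culture (log2 difference 4.05, SE 0.58, adjusted p = 0.00799). PPL, a desmosome-linked plakin, had 6.63 and 11.3 RPKM in the heterokaryons and was at 0 in both co-cultures (adjusted p = 0.039). For all 3 the lower heterokaryon library exceeded the values used for both co-cultures, which for PPL were both filled in as 0. KRT8, a further keratin of simple epithelia, was uneven: it was at 0 in Het Day2 rep1 and 233 RPKM in Het Day2 rep2, and at 0 and 12.4 RPKM in the co-cultures. Summed over 5 covered epithelial markers, the level was 281 and 595 RPKM in day 2 heterokaryons and 5.94 and 20.3 RPKM in co-culture, most of it KRT19 and KRT8; EPCAM, a defining epithelial marker, stood at 1.8 and 0 RPKM in day 2 heterokaryons and at 0 in both co-cultures. The part of epithelial cells in these values was not tested.

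CRIP1, a LIM domain protein, had 114 and 131 RPKM in day 2 heterokaryons and 0.985 and 0 RPKM in co-culture (log2 difference 6.45, SE 0.43, adjusted p = 0.000243). DES, the muscle intermediate filament desmin, had 55.1 and 49.9 RPKM in day 2 heterokaryons and 0.972 and 0 RPKM in co-culture (log2 difference 5.25, SE 0.50, adjusted p = 0.00183). The other covered muscle markers were not called. ACTA2, smooth muscle actin, stood at 154 and 164 RPKM in day 2 heterokaryons and 66.0 and 73.9 RPKM in co-culture, whereas CNN1, calponin, stood at 11.4 and 23.4 RPKM in the heterokaryons and 70.3 and 43.6 RPKM in co-culture. MYOG, a defining marker of skeletal muscle, was at 0 in all 4 libraries. Of the 5 filament and junction genes named as called, 2 stayed called without Het Day2 rep1, 2 without Het Day2 rep2, 3 without Co-culture rep1 and 4 without Co-culture rep2.

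**Figure D3:**
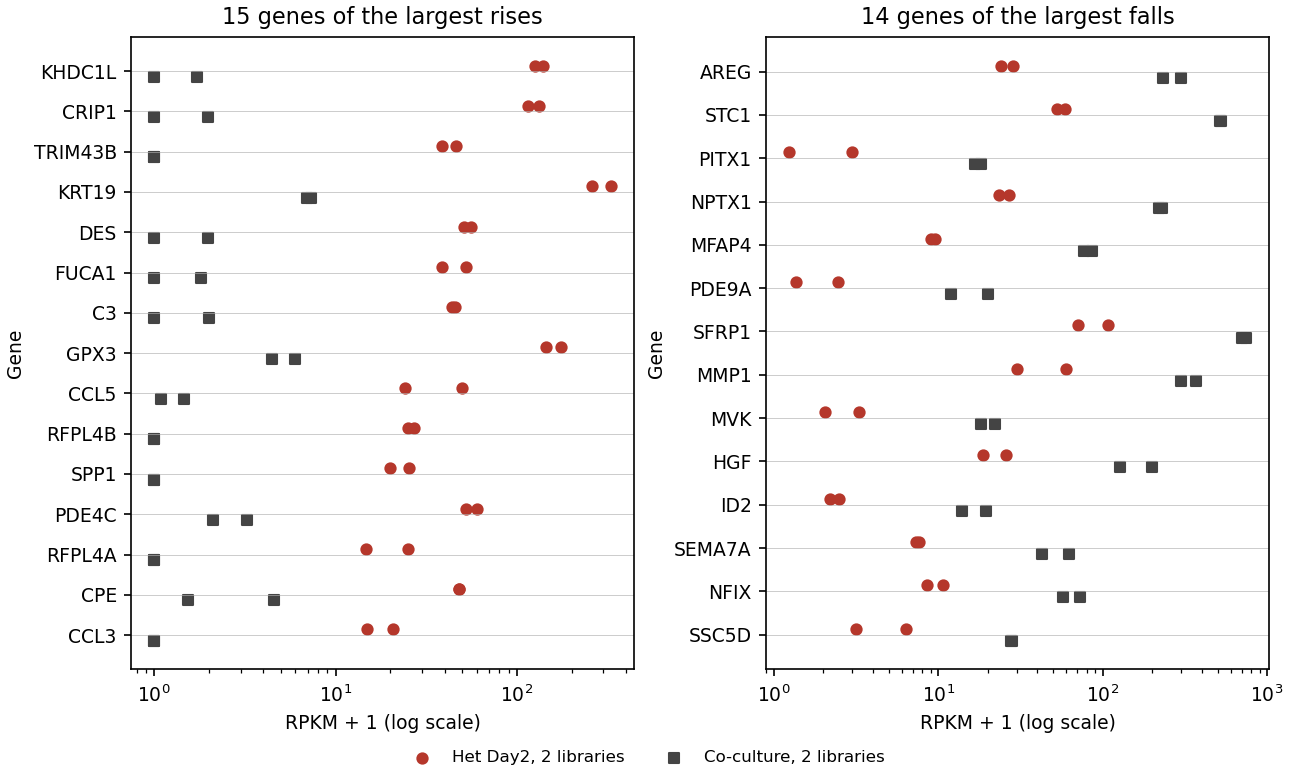
RPKM plus 1, on a log scale, of 15 genes with the largest called rises (left) and 14 of those with the largest called falls (right) among genes in the upper 50% of abundance; red circles are the 2 Het Day2 libraries and dark squares the 2 co-culture libraries, and a value of 0 sits at 1. In all 29 genes the 2 groups are separate, where a 0 is filled in for a library with no value.

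In day 2 heterokaryons 3 chemokines and 2 complement components rose. Of 11 tested chemokines 3 were higher and 0 lower (median log2 difference 1.30). CCL5, which attracts T cells, had 23.1 and 48.8 RPKM in day 2 heterokaryons and 0.0894 and 0.459 RPKM in co-culture (log2 difference 4.78, SE 0.51, adjusted p = 0.00278). CCL2, which attracts monocytes, had 52.2 and 67.6 RPKM in day 2 heterokaryons and 5.44 and 7.56 RPKM in co-culture (log2 difference 3.02, SE 0.40, adjusted p = 0.00593). CCL3 had 13.9 and 19.8 RPKM in day 2 heterokaryons and was at 0 in both co-cultures (adjusted p = 0.0173); near-identical copies of CCL3 exist, so its level is uncertain. No difference between days was called for these genes: CCL5 was at 135 and 143 RPKM on day 1 and 19.7 and 44.7 on day 3, CCL2 was at 9.56 and 15 RPKM on day 1 and 30.5 and 44.4 on day 3, and CCL3 was at 0 and 3.34 RPKM on day 1 and 13.1 and 9.88 on day 3.

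Of 12 complement genes 2 were higher and 1 lower (median 0.57). C3, the central complement component, had 43 and 44.5 RPKM in day 2 heterokaryons and 1.0 and 0 RPKM in co-culture (log2 difference 4.98, SE 0.53, adjusted p = 0.00278). CFB, its partner in the alternative pathway convertase, had 11.8 and 13.8 RPKM in day 2 heterokaryons and 1.96 and 0.472 RPKM in co-culture (log2 difference 2.72, SE 0.61, adjusted p = 0.0353). CD55, which dissociates that convertase on the cell surface, was at 0 in both day 2 libraries and at 8.57 and 5.38 RPKM in co-culture (adjusted p = 0.0411). The call for CD55 rests on filled-in values of 0, and the replicate block ended it (adjusted p = 0.0634). SPP1, the secreted phosphoprotein osteopontin, had 19.1 and 24.5 RPKM in day 2 heterokaryons and was at 0 in both co-cultures (adjusted p = 0.0287).

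Of 6 antigen presentation genes 2 were higher and 0 lower (median -0.43, below the 0.30 of all genes). TAP1, a peptide transporter, had 75.8 and 79 RPKM in day 2 heterokaryons and 28.3 and 34.9 RPKM in co-culture (log2 difference 1.27, SE 0.27, adjusted p = 0.0287). HLA-DRB1, a class II gene with near-identical relatives, had 1.64 and 2.85 RPKM in day 2 heterokaryons and 0 in both co-cultures (adjusted p = 0.0459). None of 10 tested interferon response genes was called by limma, while 2 had an unadjusted p under 0.05; the differences were positive in 10 of 10 (median 1.27), and 6 were higher without overlap, against 39.8% of all tested genes. The transcription factor IRF1 had 40.7 and 43.3 RPKM in day 2 heterokaryons and 19.1 and 18.4 RPKM in co-culture (log2 difference 1.12, SE 0.35, adjusted p = 0.0868). The antiviral gene IFIT3 had 13.3 and 21.8 RPKM in day 2 heterokaryons and 2.62 and 7.87 RPKM in co-culture (adjusted p = 0.126), and its relative IFIT1 had 7.1 and 7.51 RPKM in day 2 heterokaryons and 1.86 and 0 RPKM in co-culture (adjusted p = 0.218). Markers of blood cells summed to 3.31 and 2.0 RPKM over 4 covered genes in day 2 heterokaryons and 0 and 0.346 RPKM in co-culture. Of the 9 called immune genes, 1 stayed called without Het Day2 rep1, 0 without Het Day2 rep2, 2 without Co-culture rep1 and 2 without Co-culture rep2. With no filter, with a pseudocount of 5, or with the replicate block, 6 of the 9 were called. Quantile normalization ended the calls of CFB and HLA-DRB1.

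Among genes of antioxidant defence and the stress response, 11 of those named here rose. That count takes in MYC, which is listed as a pluripotency gene. Of 26 tested antioxidant and glutathione genes 5 were higher and 0 lower (median log2 difference 0.67). GPX3, the secreted glutathione peroxidase, had 144 and 174 RPKM in day 2 heterokaryons and 3.45 and 4.98 RPKM in co-culture, a ratio of 37.7 (log2 difference 4.95, SE 0.29, adjusted p = 0.000183). SOD2, the mitochondrial superoxide dismutase, had 253 and 273 RPKM in day 2 heterokaryons and 73.9 and 96.6 RPKM in co-culture, a ratio of 3.08 (log2 difference 1.62, SE 0.28, adjusted p = 0.0154). FTL, the ferritin light chain that stores iron, had 17211 and 16480.1 RPKM in day 2 heterokaryons and 5872 and 5404 RPKM in co-culture, a ratio of 2.99 (log2 difference 1.58, SE 0.28, adjusted p = 0.0154); it has many processed copies in the genome. Both heterokaryon libraries lay above both co-cultures in each case. The glutathione synthetase gene GSS rose by 1.38 on the log2 scale (SE 0.31, adjusted p = 0.0342), and the glutathione transferase GSTP1 by 1.06 (SE 0.25, adjusted p = 0.0402).

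Of 12 heat shock and chaperone genes 3 were higher and 0 lower (median 0.33). CRYAB, a small heat shock protein, had 514 and 359.6 RPKM in day 2 heterokaryons and 50.1 and 47.6 RPKM in co-culture, a ratio of 8.94 (log2 difference 3.11, SE 0.30, adjusted p = 0.00183). Its neighbour and relative HSPB2 had 26 and 30.6 RPKM in day 2 heterokaryons and 6.4 and 8.21 RPKM in co-culture (log2 difference 1.82, SE 0.39, adjusted p = 0.0313). ATF3, a stress-induced transcription factor that is also an immediate early gene, had 136 and 136 RPKM in day 2 heterokaryons and 9.3 and 16.5 RPKM in co-culture, a ratio of 10.5 (log2 difference 3.35, SE 0.33, adjusted p = 0.00183). The pair of heterokaryon libraries was nearly equal for ATF3 and spread more for CRYAB. Of 21 p53 and DNA damage genes 2 were higher and 0 lower (median 0.64), against 4.96% higher and 2.92% lower of all tested genes. DDB2, a DNA damage sensor, had 136 and 99.4 RPKM in day 2 heterokaryons and 32.6 and 36.1 RPKM in co-culture (log2 difference 1.73, SE 0.30, adjusted p = 0.0154). GADD45A, a growth arrest gene, had 67.9 and 146 RPKM in day 2 heterokaryons and 21.5 and 25.7 RPKM in co-culture (log2 difference 2.04, SE 0.50, adjusted p = 0.046). MYC, which drives growth and is one of the reprogramming factors, had 57.5 and 60.8 RPKM in day 2 heterokaryons and 19.5 and 17.9 RPKM in co-culture (log2 difference 1.61, SE 0.38, adjusted p = 0.0429). Of the 11 called genes of this group, 1 stayed called without Het Day2 rep1, 2 without Het Day2 rep2, 3 without Co-culture rep1 and 3 without Co-culture rep2. Fitted with no abundance trend 5 of the 11 were called, with the replicate block 6, and with no filter on low values 8. Upper quartile scaling ended the call of GSTP1, total scaling those of GSS and MYC, and quantile normalization those of MYC and FTL; the last gives the highest gene of every library the same value, so FTL could not differ there.

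Among genes of mitosis and nucleotide metabolism 8 of those named here were called higher and 0 lower. CENPA and TYMP among them were at 0 in both co-cultures, so they could not come out lower. Of 27 tested cell cycle genes 5 were higher and 0 lower (median log2 difference 1.16), and 24 of the 27 were higher without overlap, against 39.8% of all tested genes. MYBL2, a transcription factor of the mitotic programme, had 22.1 and 20.4 RPKM in day 2 heterokaryons and 0 and 0.765 RPKM in co-culture (log2 difference 4.06, SE 0.48, adjusted p = 0.00452). TOP2A, the topoisomerase that untangles chromosomes, had 11.8 and 15.5 RPKM in day 2 heterokaryons and 1.49 and 1.71 RPKM in co-culture, a ratio of 8.51 (log2 difference 2.48, SE 0.47, adjusted p = 0.0212). KIFC1, a spindle motor, had 26 and 22.6 RPKM in day 2 heterokaryons and 5.31 and 3.76 RPKM in co-culture (log2 difference 2.20, SE 0.37, adjusted p = 0.013). Both genes were highest on day 1 and lowest on day 3, differences that were not called: TOP2A stood at 44.1 and 30.8 RPKM on day 1 and 2.8 and 3.27 RPKM on day 3, and KIFC1 at 69.6 and 61.9 RPKM on day 1 and 8.87 and 8.27 RPKM on day 3. CENPA, the histone variant of centromeres, had 8.13 and 7.23 RPKM in day 2 heterokaryons and was at 0 in both co-cultures (adjusted p = 0.0138). CKS2, a subunit of cyclin-dependent kinases, had 48.4 and 57.8 RPKM in day 2 heterokaryons and 6.85 and 0.732 RPKM in co-culture (log2 difference 3.87, SE 0.75, adjusted p = 0.0221).

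Of 27 nucleotide metabolism genes 3 were higher and 0 lower (median 0.91). All 3 act in the breakdown or salvage of nucleosides. ADA, adenosine deaminase, had 105 and 96.6 RPKM in day 2 heterokaryons and 10.8 and 8.21 RPKM in co-culture, a ratio of 10.6 (log2 difference 3.29, SE 0.42, adjusted p = 0.00557). PNP, purine nucleoside phosphorylase, had 108 and 106 RPKM in day 2 heterokaryons and 24.9 and 23.8 RPKM in co-culture, a ratio of 4.41 (log2 difference 2.10, SE 0.28, adjusted p = 0.00593). TYMP, thymidine phosphorylase, had 7.44 and 5.84 RPKM in day 2 heterokaryons and was at 0 in both co-cultures (adjusted p = 0.0273). The calls of all 8 genes of mitosis and nucleoside metabolism held under the upper quartile, total and quantile scalings. Without Het Day2 rep1 or Het Day2 rep2 0 of the 8 stayed called, with median adjusted p of 0.108 and 0.110; without Co-culture rep1 3 did, and without Co-culture rep2 1 did.

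**Figure D4:**
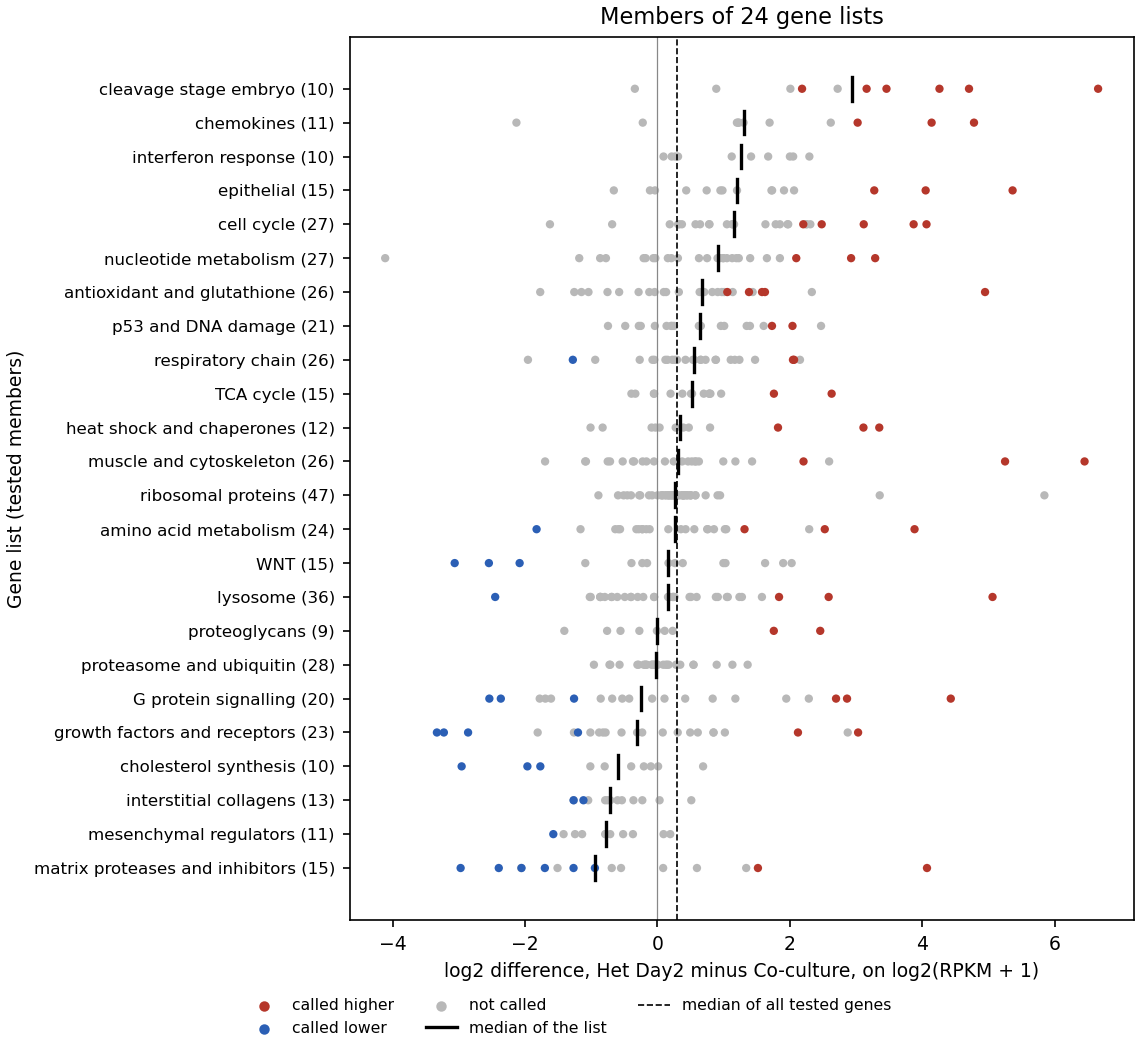
Log2 difference between day 2 heterokaryons and co-culture (horizontal axis, Het Day2 minus Co-culture on log2 of RPKM plus 1) for the tested members of 24 gene lists; each point is a gene, red where called higher, blue where called lower and grey where not called. Black bars are list medians, from 2.94 for cleavage stage genes to -0.94 for matrix proteases and inhibitors, and the dashed line is the median of all tested genes, 0.30.

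Metabolic genes were called in both directions. Of 36 tested lysosome genes 3 were higher and 1 lower (median log2 difference 0.16, below the 0.30 of all genes), close to the shares over all tested genes, 4.96% higher and 2.92% lower. FUCA1, a fucosidase, had 37.6 and 51.4 RPKM in day 2 heterokaryons and 0.816 and 0 RPKM in co-culture (log2 difference 5.06, SE 0.82, adjusted p = 0.0122). GM2A, the activator protein for ganglioside breakdown, had 127 and 123 RPKM in day 2 heterokaryons and 22.1 and 18.1 RPKM in co-culture, a ratio of 6.22 (log2 difference 2.59, SE 0.38, adjusted p = 0.00819). GUSB, a glucuronidase, had 35.6 and 44.7 RPKM in day 2 heterokaryons and 9.31 and 11.7 RPKM in co-culture (log2 difference 1.84, SE 0.38, adjusted p = 0.0287). GALNS, a sulfatase of the same organelle, went the other way, with 11.1 and 4.18 RPKM in day 2 heterokaryons and 44.1 and 40.5 RPKM in co-culture (log2 difference -2.45, SE 0.50, adjusted p = 0.0287).

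Of 26 respiratory chain and carrier genes 2 were higher and 1 lower (median 0.55), again close to the shares over all tested genes. SLC25A5, an ADP/ATP carrier of the mitochondrial inner membrane with many processed copies, had 466 and 462 RPKM in day 2 heterokaryons and 109.9 and 111 RPKM in co-culture (log2 difference 2.06, SE 0.25, adjusted p = 0.00507). The related carrier SLC25A4 had 17.6 and 20.5 RPKM in day 2 heterokaryons and 3.67 and 4.0 RPKM in co-culture (log2 difference 2.05, SE 0.47, adjusted p = 0.039). NDUFS8, a subunit of complex I, had 47.9 and 42.8 RPKM in day 2 heterokaryons and 97.9 and 126 RPKM in co-culture (log2 difference -1.28, SE 0.32, adjusted p = 0.0484). Both carriers thus rose by a similar log2 difference from levels that lie far apart, and the complex I subunit fell. Of 15 genes of the citric acid cycle and related enzymes 2 were higher and 0 lower (median 0.52), against 4.96% higher and 2.92% lower of all tested genes. IDH2, a mitochondrial isocitrate dehydrogenase, rose by 1.76 (SE 0.39, adjusted p = 0.0353) and the malic enzyme ME2 by 2.63 (SE 0.60, adjusted p = 0.0376), both on the log2 scale. With the replicate block, or with no filter, 0 genes of this list were called.

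Of 24 amino acid metabolism genes 3 were higher and 1 lower (median 0.26), against 4.96% higher and 2.92% lower of all tested genes. ALDH7A1, a lysine-degrading dehydrogenase, had 68.3 and 58.1 RPKM in day 2 heterokaryons and 1.84 and 5.63 RPKM in co-culture, a ratio of 16.9 (log2 difference 3.88, SE 0.46, adjusted p = 0.00481). The polyamine genes changed in both directions: SAT1, which acetylates polyamines for export, had 174 and 244 RPKM in day 2 heterokaryons and 38.1 and 32 RPKM in co-culture (log2 difference 2.53, SE 0.51, adjusted p = 0.0256). SRM, which makes spermidine, had 36.5 and 49.6 RPKM in day 2 heterokaryons and 161 and 146 RPKM in co-culture (log2 difference -1.82, SE 0.37, adjusted p = 0.0272). AHCY, which hydrolyses S-adenosylhomocysteine, rose by 1.32 on the log2 scale (SE 0.29, adjusted p = 0.0353). Of 10 cholesterol synthesis genes 3 were lower and 0 higher (median -0.60). MVK, mevalonate kinase, had 2.3 and 1.05 RPKM in day 2 heterokaryons and 21.3 and 17.3 RPKM in co-culture (adjusted p = 0.0182). MVD, the decarboxylase further down the same pathway, had 5.96 and 7.79 RPKM in day 2 heterokaryons and 33.1 and 26.3 RPKM in co-culture (adjusted p = 0.0329). DHCR7, the last reductase of the pathway, had 42.8 and 42.4 RPKM in day 2 heterokaryons and 138 and 158 RPKM in co-culture (log2 difference -1.77, SE 0.28, adjusted p = 0.0113). Of the 16 called metabolic genes, 0 stayed called without Het Day2 rep1, 0 without Het Day2 rep2, 1 without Co-culture rep1 and 1 without Co-culture rep2. With no abundance trend, with no filter, or with the replicate block, 10 of the 16 were called. Upper quartile scaling ended the calls of GALNS and NDUFS8, quantile normalization those of ME2 and SLC25A4, and total scaling that of AHCY.

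Proteases of the matrix and their inhibitors changed in both directions. Of 15 tested members 2 were higher and 6 lower, with a median log2 difference of -0.94, the lowest of the 24 lists drawn in the plot of list members. MMP1, the interstitial collagenase, had 29.2 and 58.4 RPKM in day 2 heterokaryons and 371 and 296 RPKM in co-culture (log2 difference -2.97, SE 0.42, adjusted p = 0.00744). MMP10, a stromelysin, had 0.16 and 0 RPKM in day 2 heterokaryons and 4.99 and 4.36 RPKM in co-culture (log2 difference -2.40, SE 0.58, adjusted p = 0.0437). For both proteases the higher heterokaryon library lay below the lower co-culture. PLAU, the urokinase that activates plasminogen, had 792 and 709 RPKM in day 2 heterokaryons and 1529.7 and 1360.2 RPKM in co-culture, and its receptor PLAUR had 46.7 and 23.1 RPKM in day 2 heterokaryons and 140.0 and 139 RPKM in co-culture. Urokinase fell by 0.94 on the log2 scale (SE 0.20, adjusted p = 0.0287) and the receptor fell by 2.05 (SE 0.44, adjusted p = 0.0307).

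The 4 tissue inhibitors of metalloproteinases were split evenly. TIMP1, one of the most abundant human transcripts of these libraries, had 1361 and 1322 RPKM in day 2 heterokaryons and 4556 and 4171 RPKM in co-culture (log2 difference -1.70, SE 0.37, adjusted p = 0.0317). TIMP2 had 144 and 174 RPKM in day 2 heterokaryons and 385 and 380.2 RPKM in co-culture (log2 difference -1.27, SE 0.22, adjusted p = 0.0154). TIMP3, the inhibitor that binds to the matrix, had 1106 and 863 RPKM in day 2 heterokaryons and 342 and 339 RPKM in co-culture (log2 difference 1.52, SE 0.29, adjusted p = 0.022). TIMP4 had 17.5 and 14.3 RPKM in day 2 heterokaryons and was at 0 in both co-cultures (adjusted p = 0.00593). In none of the 4 did the groups overlap, but both co-culture values of TIMP4 were filled in as 0. The level of TIMP3 was 329 and 378 RPKM on day 1, close to co-culture, and stood at 993 and 574 RPKM on day 3.

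**Figure D5:**
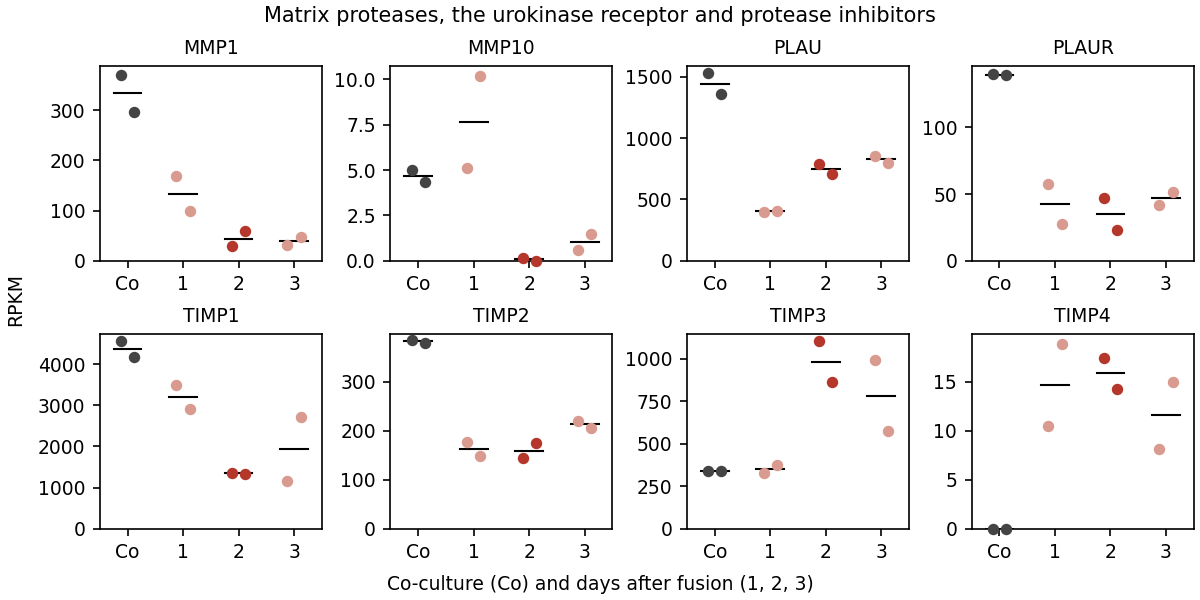
RPKM of 3 matrix proteases, the urokinase receptor and 4 protease inhibitors in co-culture (Co) and in heterokaryons on days 1, 2 and 3; points are the 2 libraries of each group and bars their means. On day 2 the proteases, PLAUR, TIMP1 and TIMP2 lie below co-culture and TIMP3 and TIMP4 lie above it.

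Among structural matrix genes, 2 interstitial collagens fell and 2 syndecans rose. Of 13 interstitial collagen genes 0 were higher and 2 lower (median log2 difference -0.71), and 11 of 13 were lower without overlap, against 21.9% of all tested genes. COL3A1 had 73.4 and 111 RPKM in day 2 heterokaryons and 199 and 239 RPKM in co-culture (log2 difference -1.27, SE 0.31, adjusted p = 0.046), and COL5A1 had 42.2 and 49.5 RPKM in day 2 heterokaryons and 96.6 and 104 RPKM in co-culture (log2 difference -1.12, SE 0.27, adjusted p = 0.0429). The major chains were not called: COL1A1 had 1576 and 1771 RPKM in day 2 heterokaryons and 2419 and 2428 RPKM in co-culture (log2 difference -0.54, SE 0.19, adjusted p = 0.13), and COL1A2 had 976 and 1191 RPKM in day 2 heterokaryons and 1358 and 1415 RPKM in co-culture (log2 difference -0.36, SE 0.26, adjusted p = 0.434). VIM, the fibroblast intermediate filament, had 1608 and 1698 RPKM in day 2 heterokaryons and 2185 and 2087 RPKM in co-culture (log2 difference -0.37, SE 0.22, adjusted p = 0.352), and was not called either. In each of these 5 genes both day 2 libraries lay below both co-cultures. They belong to the 9 fibroblast markers, whose summed level was 4364 and 4915 RPKM in day 2 heterokaryons and 6377 and 6423 RPKM in co-culture. These 5 genes make up most of that sum, so its fall repeats their values. Among the other markers PDGFRB and TWIST1 were also lower without overlap. FBN1 overlapped, at 51.8 and 55.0 RPKM in day 2 heterokaryons and 43.4 and 53.7 RPKM in co-culture, and so did LUM, near 0. The part of a wider shift in fibroblast RNA in the collagen values was not tested. MFAP4, a microfibril protein, had 8.6 and 8.04 RPKM in day 2 heterokaryons and 84.5 and 75.6 RPKM in co-culture (log2 difference -3.12, SE 0.48, adjusted p = 0.00995), and was the 1 call among 8 elastic fibre genes.

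Basement membrane genes had 1 rise and 1 fall among 12 tested (median -0.26), against 4.96% higher and 2.92% lower of all tested genes. COL7A1, which forms anchoring fibrils, had 154 and 202 RPKM in day 2 heterokaryons and 56.6 and 73.5 RPKM in co-culture (log2 difference 1.44, SE 0.28, adjusted p = 0.0226). COL15A1 had 0.314 and 0 RPKM in day 2 heterokaryons and 7.1 and 8.62 RPKM in co-culture (log2 difference -2.95, SE 0.57, adjusted p = 0.0226). Of 9 proteoglycan genes 2 were higher and 0 lower (median -0.01), both of them cell surface heparan sulfate carriers. SDC4 had 450.4 and 473 RPKM in day 2 heterokaryons and 83.6 and 82.6 RPKM in co-culture, a ratio of 5.55 (log2 difference 2.46, SE 0.22, adjusted p = 0.00154), and SDC1 had 77.1 and 91.2 RPKM in day 2 heterokaryons and 22.4 and 25.9 RPKM in co-culture (log2 difference 1.76, SE 0.27, adjusted p = 0.00995). Of 14 integrins ITGA5 alone was called, against 7.88% of all tested genes. This fibronectin receptor subunit had 192 and 181 RPKM in day 2 heterokaryons and 365 and 389 RPKM in co-culture (log2 difference -1.01, SE 0.22, adjusted p = 0.0317). Of the 16 called matrix genes, SDC4 alone stayed called without each of the 4 libraries in turn. With no abundance trend 7 of the 16 were called (median adjusted p = 0.067) and with no filter 12. With the highest transcript per gene, or with the replicate block, 13 were called. Upper quartile scaling ended the calls of 7 of the 16, namely COL3A1, COL5A1, ITGA5, PLAU, PLAUR, TIMP1 and TIMP2; COL3A1 was also lost under quantile normalization and total scaling.

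Secreted signals and their receptors were among the largest falls. Of 23 tested growth factors and receptors 2 were higher and 4 lower (median log2 difference -0.31). AREG, a ligand of the EGF receptor, had 27.4 and 23.1 RPKM in day 2 heterokaryons and 232 and 297 RPKM in co-culture (log2 difference -3.33, SE 0.66, adjusted p = 0.0244). HGF, hepatocyte growth factor, had 17.8 and 24.7 RPKM in day 2 heterokaryons and 127 and 198 RPKM in co-culture (log2 difference -2.86, SE 0.50, adjusted p = 0.0154). STC1, a secreted glycoprotein hormone, had 57.7 and 51.9 RPKM in day 2 heterokaryons and 516 and 523 RPKM in co-culture (log2 difference -3.22, SE 0.73, adjusted p = 0.0376). In each of the 3 the lower co-culture library lay far above both heterokaryon libraries. PDGFRB, the receptor for platelet-derived growth factor, fell by 1.20 on the log2 scale (SE 0.30, adjusted p = 0.0484). IGF1R, the receptor for insulin-like growth factor, had 27.8 and 24.3 RPKM in day 2 heterokaryons and 6.28 and 4.26 RPKM in co-culture (log2 difference 2.12, SE 0.42, adjusted p = 0.0256). IGFBP2, a binding protein of its ligands, had 7.34 and 7.01 RPKM in day 2 heterokaryons and was at 0 in both co-cultures (adjusted p = 0.0119). LIF, the cytokine used to keep mouse ES cells undifferentiated, was the one call among 12 genes of IL6 and JAK STAT signalling, at 22.9 and 25.7 RPKM in day 2 heterokaryons and 91.1 and 102 RPKM in co-culture (adjusted p = 0.0114).

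WNT genes had 0 rises and 3 falls among 15 tested (median 0.17), against 4.96% higher and 2.92% lower of all tested genes. SFRP1, a secreted WNT antagonist, had 106 and 69.3 RPKM in day 2 heterokaryons and 704 and 744 RPKM in co-culture (log2 difference -3.06, SE 0.33, adjusted p = 0.00278). WNT5A, a ligand of the pathway's non-canonical arm, had 6.21 and 6.23 RPKM in day 2 heterokaryons and 38.3 and 44.2 RPKM in co-culture (log2 difference -2.54, SE 0.53, adjusted p = 0.0287). FZD1, a receptor, had 2.89 and 2.77 RPKM in day 2 heterokaryons and 14.4 and 16.1 RPKM in co-culture (log2 difference -2.08, SE 0.52, adjusted p = 0.0468). The 3 falls do not extend to the whole list, where 8 of 15 differences were positive. Without overlap 6 members were higher and 4 lower, against 39.8% and 21.9% of all tested genes. The replicate block ended the call of FZD1 (adjusted p = 0.0733). On day 1 WNT5A stood at 0.48 and 2.67 RPKM and on day 3 at 14 and 12.3 RPKM.

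G protein signalling genes had 3 rises and 3 falls among 20 tested (median -0.25). BDKRB1, a bradykinin receptor, had 13.6 and 15 RPKM in day 2 heterokaryons and 72.1 and 83.3 RPKM in co-culture (log2 difference -2.36, SE 0.45, adjusted p = 0.0214). F2R, the thrombin receptor, had 48.6 and 51.8 RPKM in day 2 heterokaryons and 113 and 130.4 RPKM in co-culture (log2 difference -1.26, SE 0.26, adjusted p = 0.0287). Among the rises, ADORA2B, an adenosine receptor, had 23.4 and 16.6 RPKM in day 2 heterokaryons and 1.15 and 3.76 RPKM in co-culture (log2 difference 2.70, SE 0.51, adjusted p = 0.0205). The phosphodiesterases, which degrade cyclic nucleotides, changed in both directions: PDE4C had 51.2 and 59.5 RPKM in day 2 heterokaryons and 1.1 and 2.24 RPKM in co-culture (log2 difference 4.43, SE 0.44, adjusted p = 0.00194). PDE4B had 0.528 and 0 RPKM in day 2 heterokaryons and 7.73 and 4.9 RPKM in co-culture (log2 difference -2.54, SE 0.60, adjusted p = 0.0415), and PDE9A, outside the list, had 1.46 and 0.357 RPKM in day 2 heterokaryons and 10.9 and 19 RPKM in co-culture (adjusted p = 0.0448).

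NPTX1, SEMA7A and SSC5D, further secreted or surface proteins, fell. NPTX1, a neuronal pentraxin, had 22.4 and 25.8 RPKM in day 2 heterokaryons and 227 and 219.9 RPKM in co-culture (log2 difference -3.17, SE 0.28, adjusted p = 0.00154). SEMA7A, a membrane-anchored semaphorin, had 6.64 and 6.31 RPKM in day 2 heterokaryons and 41.5 and 61 RPKM in co-culture (log2 difference -2.78, SE 0.41, adjusted p = 0.00812). SSC5D, a soluble scavenger receptor, had 5.35 and 2.17 RPKM in day 2 heterokaryons and 26.6 and 26.9 RPKM in co-culture (adjusted p = 0.046). CPE, a peptide-processing carboxypeptidase, was a rise, with 46.9 and 46.7 RPKM in day 2 heterokaryons and 0.532 and 3.58 RPKM in co-culture (log2 difference 4.17, SE 0.55, adjusted p = 0.00593). Of the 20 signalling and surface genes named as called, 2 stayed called without Het Day2 rep1, 1 without Het Day2 rep2, 4 without Co-culture rep1 and 4 without Co-culture rep2. With no filter, or with the highest transcript per gene, 14 of the 20 were called, and with the replicate block 15. Upper quartile scaling ended the calls of F2R, FZD1, PDGFRB and SSC5D.

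Among transcription regulators PITX1, NFIX and FOXF1 fell. PITX1, a homeobox factor of limb tissue, had 0.237 and 1.96 RPKM in day 2 heterokaryons and 15.7 and 17.2 RPKM in co-culture (log2 difference -3.19, SE 0.79, adjusted p = 0.0463). NFIX, a nuclear factor I member, had 7.58 and 9.72 RPKM in day 2 heterokaryons and 56.6 and 71.4 RPKM in co-culture (log2 difference -2.75, SE 0.37, adjusted p = 0.00618). FOXF1, a forkhead factor of lung mesenchyme and the one call among 11 mesenchymal regulators (median log2 difference -0.78), had 84.6 and 66.3 RPKM in day 2 heterokaryons and 249 and 202 RPKM in co-culture (log2 difference -1.57, SE 0.33, adjusted p = 0.0298). Both day 2 libraries were below both co-cultures for all 3 factors. Of 17 TGF beta and BMP genes 1 was higher and 2 lower (median 0.18), against 4.96% higher and 2.92% lower of all tested genes. ID2, a BMP target that blocks basic helix-loop-helix factors, had 1.5 and 1.18 RPKM in day 2 heterokaryons and 12.9 and 18.4 RPKM in co-culture (log2 difference -2.81, SE 0.54, adjusted p = 0.0221), and ENG, the co-receptor endoglin, had 33.7 and 30.9 RPKM in day 2 heterokaryons and 133 and 122 RPKM in co-culture (log2 difference -1.95, SE 0.32, adjusted p = 0.0129). CCN1, a matricellular immediate early gene, had 277 and 232 RPKM in day 2 heterokaryons and 78.9 and 62.5 RPKM in co-culture (log2 difference 1.84, SE 0.39, adjusted p = 0.0287).

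Of 4 tested pluripotency genes MYC alone was called (median 1.36). CRIPTO, a NODAL co-receptor of the early embryo, had 5.89 and 9.49 RPKM in day 2 heterokaryons and 0 and 0.427 RPKM in co-culture and missed the threshold (log2 difference 2.83, SE 0.73, adjusted p = 0.0533). Of the 5 called genes at 0 in both day 2 libraries, CD55 is described above, and CSNK2A3 is a near-identical copy of another kinase gene, so its level is uncertain. The acetylcholine receptor subunit CHRNA1 had 5.26 and 4.14 RPKM in co-culture, the decoy receptor IL13RA2 had 3.19 and 2.15 RPKM and the membrane protein gene TMEM200C had 3.38 and 3.04 RPKM, and all 3 were at 0 in both day 2 libraries (adjusted p = 0.018, 0.0328 and 0.0353). Of the 9 called genes of these last groups other than MYC and CD55, 0 stayed called without each of the 4 libraries in turn, and the smallest adjusted p among them was 0.081, 0.0789, 0.0623 and 0.1003 without Het Day2 rep1, Het Day2 rep2, Co-culture rep1 and Co-culture rep2. With no abundance trend, or with a pseudocount of 0.1, 6 of the 9 were called, and with the replicate block 7. Upper quartile scaling ended the call of FOXF1.

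Some gene groups showed no calls at all by limma. Of 47 tested ribosomal protein genes 0 were called and 2 had an unadjusted p under 0.05 (median log2 difference 0.26, near the 0.30 of all genes). The list has 63 covered members. Those not tested had no value in any of the 4 libraries and were taken as 0, so the group was measured in part. Of 28 proteasome and ubiquitin genes 0 were called and 2 had an unadjusted p under 0.05 (median -0.03). Translation factors gave 0 calls and 4 unadjusted p under 0.05 among 18 (median 0.32), and fatty acid and lipid handling genes gave 0 calls and 5 among 17 (median 0.07). These counts do not show that the levels were equal.

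Day 2 heterokaryons were also compared with those of day 1 and day 3 in the same fit. No gene was called by limma against day 1, where 17.2% of genes had an unadjusted p under 0.05 and the smallest adjusted p was 0.0588. None was called against day 3, where 7.05% had an unadjusted p under 0.05 and the smallest adjusted p was 0.275. The day 1 comparison gave 15 calls after upper quartile scaling, 5 without Het Day1 rep2 and 1 without Het Day2 rep2. The day 3 comparison gave 6 calls without Het Day3 rep1 and 1 without Het Day2 rep2. Among the genes described here, KRT19 stood at 86.6 and 58.4 RPKM on day 1, 259 and 329 RPKM on day 2 and 221 and 144 RPKM on day 3, and its day 2 minus day 1 difference was 2.02 (adjusted p = 0.072).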

How the data were processed

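PolyA RNA was sequenced. The deposited tables give 1 value per RefSeq transcript, in a unit of the RPKM form inferred from the values; the authors' steps to make it are not given in the sources used here. The genome builds are hg19 and mm10, per the submitters' processing notes. Each table holds exactly 10000 distinct values, no 0, and stops at an accession that differs between libraries. Up to that point a missing human transcript was taken as 0, and later ones were not used. Coding transcripts were summed per gene; 132 accessions were named through GENCODE 29, and 116 covered genes beside unnamed accessions were set aside.

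Genes at 1 or more in at least 2 of the 8 libraries of Het Day1, Het Day2, Het Day3 and Co-culture were tested with limma 3.58.1 in R 4.3.3 (lmFit, eBayes with trend, 4 residual degrees of freedom) on log2 of RPKM plus 1, with Benjamini-Hochberg adjustment over 2398 genes and a threshold of 0.05. Log2 differences are Het Day2 minus Co-culture and understate changes of low genes. The step was tested on simulated data, where it recovered 14%, 62%, 94% and 100% of genes changed by 1, 2, 3 and 4 log2 units. The simulation gave genes of equal abundance the same spread and filled in no missing transcripts. It differs in both from the data, so these shares need not hold there. Read depth is not known, so no counting intervals are given. Named genes are the 15 largest rises and 15 largest falls among called genes in the upper 50% of abundance, genes at 0 in 1 group, and up to 6 members of each list described; COL1A2, CRIPTO, KRT8, MBD3L3, MMP10, PRAMEF12, TIMP1 and TRIM49C lie outside this rule and were chosen after their values were seen. Members, lists and genes were chosen with earlier results of these data known. Other scalings, pseudocounts, filters, fits and left-out libraries were tried. Some called genes are not reported here. Mouse transcripts were not analysed here.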

Additional observations from a re-analysis of the deposited data

How the results depend on the processing

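The 189 calls against co-culture became 386 when only the 2 groups entered the fit, and from 8 to 23 when 1 of the 4 libraries was left out; that arm then had 1 sample, assumed to vary like the others. Under the 12 other alternatives the count stayed between 135 and 223. Lowest were the fit with a replicate block (135) and no filter (136); highest was the spread shared with unfused fibroblasts (223). Replicate numbers were not taken as pairs: deviations of same-numbered libraries of Het Day2 and Co-culture correlated at 0.080, and the replicate block kept 129 of the 189 calls. Quantile normalization shared 159 calls, upper quartile scaling 161 and total scaling 178. They moved the median log2 difference over all genes to 0.02, 0.48 and 0.24. Against day 1 there were 8 calls with the spread shared with unfused fibroblasts, 15 with upper quartile scaling, 8 with total scaling and 7 with the highest transcript per gene, and 0 to 5 when 1 library was left out. Against day 3, leaving 1 library out gave 0 to 6 calls. The cause of these differences was not tested. Of 117 named genes KRT8 alone changed sign: its log2 difference was -1.87 without Het Day2 rep2 and 6.0001 without Het Day2 rep1 (not called in either). FTL was at 0 under quantile normalization. With 2 libraries a group and no read totals, small changes and low genes could not be resolved, and a p that misses the threshold does not show equal levels.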
